A study of Mus musculus with 13 samples.

Results

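Transcripts of 9 genes of the liver X receptor (LXR) pathway were examined in brain-resident myeloid cells of PS2APP mice with and without Trem2. The genes were chosen by name out of 52636 listed in the data. They comprise the 2 LXR genes (Nr1h2 and Nr1h3), the 3 retinoid X receptor (RXR) genes (Rxra, Rxrb and Rxrg) and 4 genes that LXR activates (Abca1, Abcg1, Mylip and Lpcat3). All 9 were among the 17086 genes with enough reads to be tested. The cells came from cortex and hippocampus of mice aged 14 to 15 months and were sorted as CD11b+CD45+Ccr2-Ly6g- cells, a gate that holds mainly microglia and also some perivascular macrophages. Each RNA-seq library is 1 mouse. There were 7 PS2APP;Trem2wt mice, of which 2 were male, and 6 PS2APP;Trem2ko mice, of which 1 was male. Both groups carry the PS2APP transgenes, mutant human presenilin 2 and amyloid precursor protein, which produce β-amyloid plaques, so no mouse without plaques entered this comparison. PS2APP;Trem2ko mice are in addition homozygous for a null allele of Trem2, the surface receptor of microglia for lipids and lipoproteins. The allele was made in C57BL/6N and crossed to a C57BL/6J background and removes Trem2 from every cell of the body, not from microglia alone.

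LXRs are nuclear receptors that bind oxidized cholesterol, pair with an RXR and sit on DNA at paired copies of a short hexamer. With ligand bound they switch on genes that move cholesterol out of the cell and limit its uptake, and without ligand they hold corepressors at the same genes. In macrophages and microglia this pathway is best known for the disposal of cholesterol taken up with myelin, lipoproteins and cell debris.

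Total counts per mouse ran from 26120961 to 114857155 in PS2APP;Trem2wt mice, with a median of 35201380. In PS2APP;Trem2ko mice they were higher, from 41567025 to 120569609, with a median of 55371726. Trem2 itself was at 818 to 1244 nRPKM (RPKM, reads scaled to gene length and library size, adjusted by a size factor) in PS2APP;Trem2wt mice and at 0.393 to 2.29 nRPKM in PS2APP;Trem2ko mice. The defining microglial genes were high in both genotypes, with P2ry12 at a mean of 1949 and 1952 nRPKM and Tmem119 at 1420 and 1464 nRPKM in PS2APP;Trem2wt and PS2APP;Trem2ko mice. Of 10 microglial markers, 1 passed the test, Cx3cr1, which was lower in PS2APP;Trem2ko mice by 0.49 on the log2 scale. None of the markers tested for other cells passed it. Their summed levels ran, in PS2APP;Trem2wt and PS2APP;Trem2ko mice, from 11.0 to 32.7 and from 18.8 to 47.9 nRPKM for 7 border macrophage genes, from 6.37 to 125 and from 1.55 to 24.5 nRPKM for 5 monocyte and neutrophil genes, and from 54.6 to 69.0 and from 59.2 to 75.3 nRPKM for 5 astrocyte genes. Mrc1, which defines border macrophages, was at 2.01 to 6.84 and 3.96 to 9.60 nRPKM. Ly6g, which defines neutrophils, was at no more than 0.137 nRPKM in any mouse and was not tested. S100a8, of the same list, was at 1.56 to 54.4 and 0.0322 to 7.596 nRPKM. S100a9 was at 3.96 to 62.7 and 0.0899 to 9.66 nRPKM. The log2 fold changes of S100a8 and S100a9 were -1.605 and -1.598 (edgeR, adjusted p = 0.3504 and 0.309, unadjusted p = 0.0548 and 0.0411). Those of Ccr2 and Ly6c2 were 0.383 and -0.501. Nearest the threshold among markers of other cells was the astrocyte gene Slc1a3, at 40.1 to 52.2 and 49.3 to 62.5 nRPKM. Its log2 fold change was 0.30 ± 0.07 (SE; edgeR, adjusted p = 0.0533, unadjusted p = 0.00114). That of the endothelial gene Kdr was 0.48 ± 0.19 (edgeR, adjusted p = 0.235, unadjusted p = 0.0222). No other astrocyte or endothelial gene was past an unadjusted p of 0.05. Whether these cells contributed to the values below was not tested. In sorted bulk RNA, fewer cells that express a gene and less of its RNA per cell cannot be told apart.

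Promoters of the pathway are shown first, because the hexamer pair is how LXR and RXR recognize their genes. RefSeq promoters (GRCm38.p6, from 250 bases before the start of transcription to 50 after) were found for 8 of the 9 genes, at 12 start sites, and Abcg1 had no entry. They were searched on both strands for the hexamer AGGTCA, for the direct repeat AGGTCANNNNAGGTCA, and for a looser repeat that fixes only 4 of the 6 bases of each copy, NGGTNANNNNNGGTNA, of which the direct repeat is a special case. The hexamer occurs in 16.3% of all 32851 RefSeq promoters, the direct repeat in 0.0152% and the looser repeat in 0.718%. Of the 12 promoters, 2 held the hexamer (the second start sites of Rxra and Rxrg), none held the direct repeat, and 1, that of Abca1, held the looser repeat. In Abca1 the match lies on the strand opposite to the gene, from 67 to 52 bases before the start (capitals).
Abca1, chr4:53159846-53160145, minus strand: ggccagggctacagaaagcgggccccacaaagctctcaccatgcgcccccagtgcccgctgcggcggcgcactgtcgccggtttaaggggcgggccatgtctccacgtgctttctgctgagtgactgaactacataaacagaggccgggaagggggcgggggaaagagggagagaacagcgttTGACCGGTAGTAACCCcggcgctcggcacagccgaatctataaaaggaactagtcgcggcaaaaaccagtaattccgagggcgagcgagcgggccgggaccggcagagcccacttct
Both Rxrg promoters are given because Rxrg was the receptor gene that fell. The first start site has no match, and the second holds 1 hexamer from 88 to 83 bases before the start (capitals).
Rxrg first start, chr1:167598112-167598411, plus strand: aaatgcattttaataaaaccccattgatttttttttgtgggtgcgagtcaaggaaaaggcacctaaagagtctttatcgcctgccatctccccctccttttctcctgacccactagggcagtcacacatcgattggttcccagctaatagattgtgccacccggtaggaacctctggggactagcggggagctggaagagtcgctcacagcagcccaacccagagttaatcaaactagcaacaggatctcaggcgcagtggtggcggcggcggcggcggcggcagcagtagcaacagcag
Rxrg second start, chr1:167618015-167618314, plus strand: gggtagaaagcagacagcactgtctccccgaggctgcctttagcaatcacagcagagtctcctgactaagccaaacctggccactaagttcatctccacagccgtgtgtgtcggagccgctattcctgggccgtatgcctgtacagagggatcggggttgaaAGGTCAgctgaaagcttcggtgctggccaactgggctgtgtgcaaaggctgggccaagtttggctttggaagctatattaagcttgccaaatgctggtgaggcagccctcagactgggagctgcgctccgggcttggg
These matches describe letters in a 300-base window, and binding was not measured.

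Nr1h2, which encodes LXRβ, lies on chromosome 7 (GRCm38, 44549616 to 44553951, minus strand). Its level was 24.6 nRPKM in the lowest, 26.6 in the median and 27.9 in the highest PS2APP;Trem2wt mouse, and 23.5, 27.7 and 29.4 nRPKM in PS2APP;Trem2ko mice. The groups overlapped almost completely, and the fold change, PS2APP;Trem2ko over PS2APP;Trem2wt, was 0.03 ± 0.06 on the log2 scale (SE; edgeR quasi-likelihood test, adjusted p = 0.849). Its 95% interval, from -0.09 to 0.16, leaves room for at most a 1.12-fold rise.

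Nr1h3, which encodes LXRα, lies on chromosome 2 (91184061 to 91202834, minus strand) and was scarcely expressed. Its level was 0.389, 0.497 and 0.804 nRPKM (lowest, median and highest) in PS2APP;Trem2wt mice and 0.112, 0.462 and 0.561 nRPKM in PS2APP;Trem2ko mice, on 34 to 173 reads per mouse. The groups overlapped, with 2 PS2APP;Trem2ko mice below every PS2APP;Trem2wt mouse. The log2 fold change was -0.51 ± 0.32 (edgeR, adjusted p = 0.505), and its interval, from -1.19 to 0.18, is too wide to tell a fall of more than 2-fold from a small rise. It ran from -0.80 (voom and limma) to -0.16 (limma on log2(nRPKM + 1)) over 9 alternative settings, none of which called it, and was -0.30 ± 0.25 without PS2APP;Trem2ko replicate 5, the lowest mouse. The added 1 is larger than any level of this gene and shrinks its fold change, which was -0.48 in limma on log2(nRPKM + 0.1). Nr1h2 therefore made up nearly all LXR transcript in both genotypes, on average 97.9% ± 0.51 (SD) of the summed nRPKM over 7 PS2APP;Trem2wt mice and 98.5% ± 0.65 (SD) over 6 PS2APP;Trem2ko mice.

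Among the RXRs, the obligate partners of LXR, 1 of 3 genes fell. Rxra lies on chromosome 2 (27676440 to 27762957, plus strand) and was at 8.16, 10.6 and 13.4 nRPKM (lowest, median and highest) in PS2APP;Trem2wt and at 8.28, 9.60 and 10.8 nRPKM in PS2APP;Trem2ko mice. The values overlapped, and the log2 fold change was -0.16 ± 0.11 (edgeR, adjusted p = 0.550). Rxrb lies on chromosome 17 (34031812 to 34038399, plus strand) and was at 13.3, 16.1 and 19.4 nRPKM in PS2APP;Trem2wt and at 11.3, 12.8 and 13.6 nRPKM in PS2APP;Trem2ko mice. In normalized counts, 5 of 6 PS2APP;Trem2ko mice lay below every PS2APP;Trem2wt mouse. The log2 fold change of -0.34 ± 0.09, with an interval from -0.53 to -0.15, missed the threshold after adjustment (edgeR, adjusted p = 0.0627). DESeq2 called it (adjusted p = 0.01005, against 0.01005 to 0.118 over 9 alternative settings), as did edgeR without PS2APP;Trem2wt replicate 1 (0.0292) or 2 (0.0452).

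Rxrg, which encodes RXRγ, lies on chromosome 1 (167598384 to 167639623, plus strand). Its level was 4.10, 6.20 and 12.9 nRPKM (lowest, median and highest) in PS2APP;Trem2wt and 1.79, 3.47 and 4.12 nRPKM in PS2APP;Trem2ko mice. The groups touched: the lowest PS2APP;Trem2wt mouse lay just under the highest PS2APP;Trem2ko mouse in nRPKM, and just above it in normalized counts. Rxrg fell by 1.08 ± 0.24 on the log2 scale, a 2.12-fold lower level, with an interval from -1.60 to -0.56 (edgeR, adjusted p = 0.0316). It was the one gene of the 9 called lower, where 1.53% of all tested genes were, and it also passed the 2-fold threshold of the study, which 0.691% of tested genes did on the lower side. It was less than 2-fold without PS2APP;Trem2wt replicate 3 (-0.86) or PS2APP;Trem2ko replicate 5 (-0.95) and with limma on log2(nRPKM + 1) (-0.84, against -1.01 on log2(nRPKM + 0.1)). The one with normalized counts that did not overlap on the lower side was again Rxrg, against 1.22% of tested genes. Rxrg was past the adjusted p threshold of 0.05 under all 9 alternative settings (adjusted p from 0.000443 to 0.0494). It was lost in 5 of 13 fits that left out 1 mouse, namely PS2APP;Trem2ko replicates 3, 4, 5 and 6 (adjusted p = 0.0514, 0.0661, 0.0512 and 0.0675) and PS2APP;Trem2wt replicate 5 (0.0645).

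The summed level of the 3 RXRs averaged 33.7 ± 5.67 nRPKM (SD) over 7 PS2APP;Trem2wt mice and 25.6 ± 1.14 nRPKM (SD) over 6 PS2APP;Trem2ko mice. Rxrg supplied 20.1% ± 5.12 of that sum in PS2APP;Trem2wt and 12.9% ± 3.06 in PS2APP;Trem2ko mice. Rxrb supplied 47.9% ± 4.43 and 49.6% ± 3.23, and Rxra 31.9% ± 4.57 and 37.5% ± 3.15. Ratios within a mouse were taken after these levels had been seen and are a description. The log2 ratio of Rxrg to Rxra ran from -1.46 to 0.08 in PS2APP;Trem2wt and from -2.38 to -1.12 in PS2APP;Trem2ko mice, and that of Rxrg to Rxrb from -1.95 to -0.59 and from -2.86 to -1.65, with overlap in both.

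**Figure D1:**
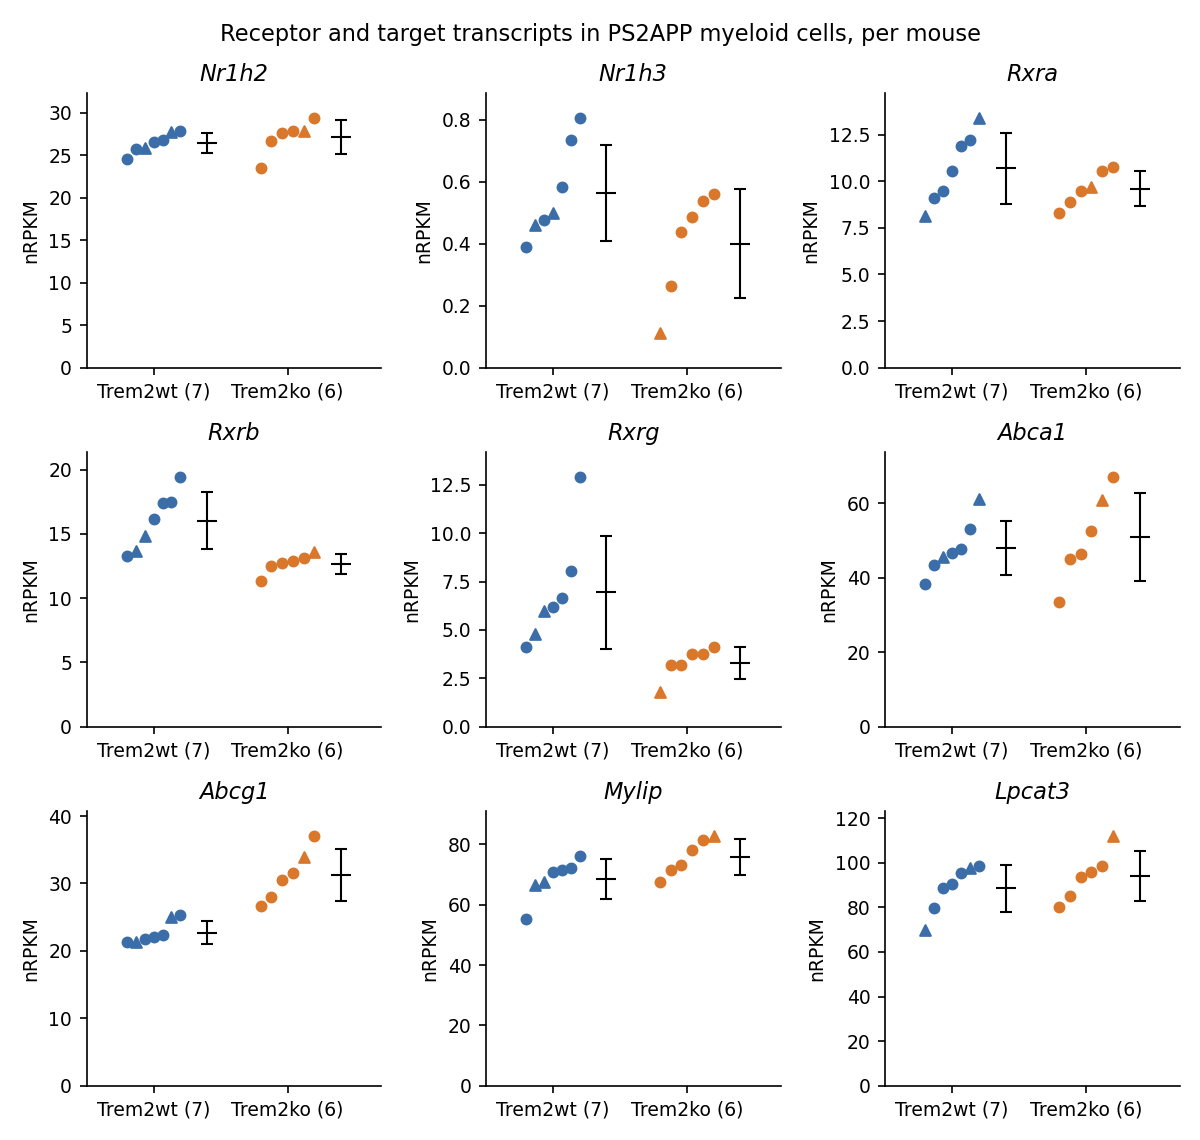
Level in nRPKM of the 9 transcripts in each mouse, on axes that start at 0, with PS2APP;Trem2wt mice in blue and PS2APP;Trem2ko mice in orange, females as circles and males as triangles. Black bars give the mean and SD. Every PS2APP;Trem2ko mouse was above every PS2APP;Trem2wt mouse for Abcg1, and Rxrg was at 3.30 against 6.95 nRPKM on average.

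Of the 2 cholesterol exporters, Abcg1 rose and Abca1 was not called. ABCA1 loads cholesterol and phospholipid onto lipid-poor apolipoproteins, and ABCG1 passes cholesterol to lipoprotein particles that already hold lipid. Abca1 lies on chromosome 4 (53030787 to 53159895, minus strand) and was at 38.4, 46.5 and 61.1 nRPKM (lowest, median and highest) in PS2APP;Trem2wt and at 33.6, 49.5 and 66.9 nRPKM in PS2APP;Trem2ko mice. The PS2APP;Trem2ko mice spanned the whole PS2APP;Trem2wt range, and the log2 fold change was 0.08 ± 0.14, with an interval from -0.22 to 0.38 (edgeR, adjusted p = 0.843). Without PS2APP;Trem2ko replicate 4 it was -0.013.

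Abcg1 lies on chromosome 17 (31057675 to 31117988, plus strand). Its level was 21.3, 22.1 and 25.3 nRPKM in PS2APP;Trem2wt and 26.7, 31.0 and 37.0 nRPKM in PS2APP;Trem2ko mice. All 6 PS2APP;Trem2ko mice lay above all 7 PS2APP;Trem2wt mice. The rise was 0.46 ± 0.08 on the log2 scale, or 1.37-fold, with an interval from 0.29 to 0.63 (edgeR, adjusted p = 0.00715). Abcg1 was the one gene of the 9 called higher, where 0.503% of tested genes were, and the one that did not overlap on the higher side, where 0.421% were. It stayed under the 2-fold threshold, which 0.0527% of tested genes passed on the higher side. At an unadjusted p of 0.05, 2 of the 9 genes were lower (Rxrg and Rxrb) and 1 higher (Abcg1), where 7.56% and 7.29% of tested genes were. The call held under all 9 alternative settings (adjusted p from 5.32e-06 to 0.0393) and in all 13 fits without 1 mouse (from 0.00329 to 0.0193).

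The log2 ratio of Abcg1 to Abca1, also a description, averaged -1.06 ± 0.15 (SD) over 7 PS2APP;Trem2wt mice and -0.67 ± 0.19 (SD) over 6 PS2APP;Trem2ko mice. The ratios overlapped, running from -1.29 to -0.78 and from -0.85 to -0.33, and no test of the difference between them is given. Abcg1 supplied 32.3% ± 2.31 of the summed level of both exporters in PS2APP;Trem2wt and 38.5% ± 3.20 in PS2APP;Trem2ko mice.

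Abcg1 and Rxrb lie on the same chromosome as Trem2, at distances of 17.2 and 14.3 Mb, where sequence that came with the null allele cannot be told apart from the loss of Trem2. Of 252 tested genes between 10 and 20 Mb from Trem2, 3 were called higher, Abcg1 among them, or 1.19%, and none lower (edgeR, adjusted p of 0.05 or less). Of the tested genes outside 20 Mb, 0.486% were called higher and 1.54% lower. At an unadjusted p of 0.05 the shares were 15.5% and 14.8%. Within 1 Mb of Trem2, which itself was left out, 13.8% of 29 genes were called, 3 lower and 1 higher. The study set Treml1 aside as an artifact of the inserted knockout cassette, and here no gene but Trem2 was left out.

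The other 2 targets were the most abundant of the 9, and neither was called. Mylip, on chromosome 13 (45389742 to 45412022, plus strand), encodes the ubiquitin ligase IDOL, which limits the uptake of lipoproteins. It was at 55.3, 70.9 and 76.2 nRPKM in PS2APP;Trem2wt and at 67.6, 75.6 and 82.6 nRPKM in PS2APP;Trem2ko mice, which overlapped, with a log2 fold change of 0.14 ± 0.08 (edgeR, adjusted p = 0.415). Lpcat3, on chromosome 6 (124663027 to 124704418, plus strand), puts polyunsaturated fatty acids into phospholipids. It was at 69.7, 90.3 and 98.7 nRPKM in PS2APP;Trem2wt and at 80.1, 94.8 and 112 nRPKM in PS2APP;Trem2ko mice, which overlapped, with a log2 fold change of 0.09 ± 0.09 (edgeR, adjusted p = 0.728). Their 95% intervals ended at 1.23-fold and 1.22-fold higher. Lpcat3 shares 334 exon bases, 10.2% of its exon length, with Emg1 on the opposite strand, and since the strand setting of the counting is not given in the sources used here, reads of that stretch cannot be told apart. Of the 50-base words of each transcript, 8.39% in Lpcat3 and at most 0.346% in any of the other 8 genes also occur in another gene. Words were counted on both strands, and the only gene that shares those of Lpcat3 is Emg1, the gene of the overlap.

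**Figure D2:**
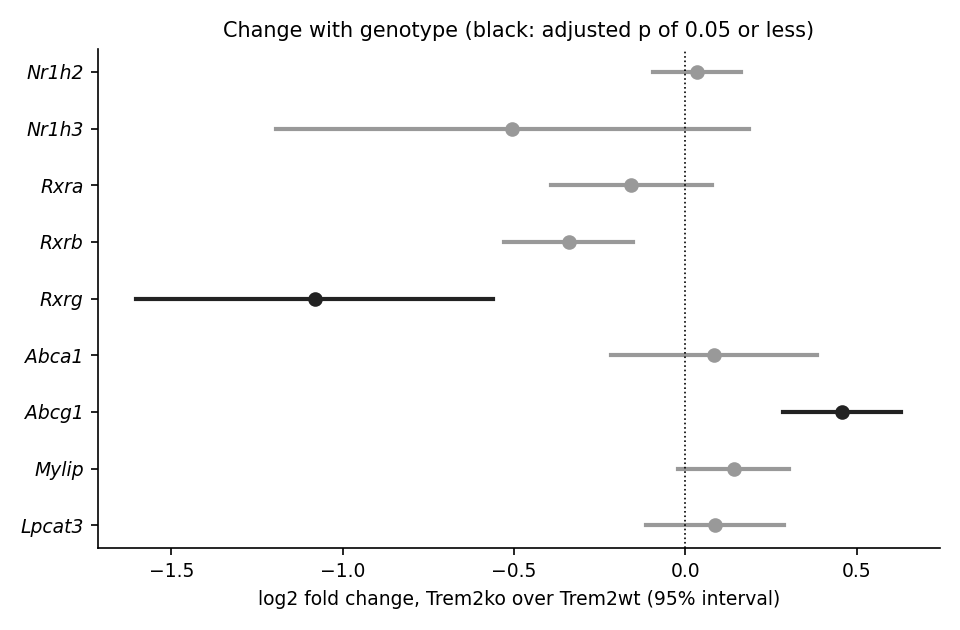
Log2 fold change of each transcript, PS2APP;Trem2ko over PS2APP;Trem2wt, from the edgeR fit to 13 mice, with its 95% interval as a line, black where the adjusted p was 0.05 or less and grey otherwise. Rxrg (-1.08) and Abcg1 (0.46) are black, and the interval of Rxrb, from -0.53 to -0.15, is grey and ends short of 0.

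In order of mean nRPKM, PS2APP;Trem2wt mice had Lpcat3 at 88.5, Mylip at 68.6, Abca1 at 47.9, Nr1h2 at 26.5, Abcg1 at 22.7, Rxrb at 16.0, Rxra at 10.7, Rxrg at 6.95 and Nr1h3 at 0.563. Neighbours in this order had ranges that overlapped, except Abca1 over Nr1h2, Abcg1 over Rxrb and Rxrg over Nr1h3. Within mice the order was tighter, since each gene was above the next in all 7 mice except Rxra over Rxrg, which held in 6. In PS2APP;Trem2ko mice the order was the same but for Abcg1, at a mean of 31.3 nRPKM, which stood above Nr1h2 at 27.1 nRPKM in 4 of 6 mice. Set among the 17086 tested genes by mean nRPKM over all mice, Lpcat3 was above 98.1% of them, Abca1 above 95.8%, Nr1h2 above 91.3%, Rxrg above 63.4% and Nr1h3 above 25.2%.

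Because receptors and targets belong to 1 pathway, it was asked whether their levels varied together from mouse to mouse. Over 13 mice, 14 pairs were examined on the log2(nRPKM + 0.1) scale, namely the 6 pairs among the targets and the 8 pairs of an LXR with a target. None passed an adjusted p of 0.05. The 6 pairs of targets all had positive r, between 0.463 and 0.654. The highest was Abcg1 with Mylip (Pearson r = 0.654, permutation p = 0.0116, adjusted 0.0962; Spearman rho = 0.654, permutation p = 0.0183, adjusted 0.128). Values over 13 mice include the difference between genotypes. For this pair r was 0.167 within PS2APP;Trem2wt mice (exact permutation p = 0.742, adjusted 0.799). Within PS2APP;Trem2ko mice it was 0.891 (exact permutation p = 0.0208, adjusted 0.0729). No spread of r over pairs of other genes is given, so positive r was not shown to be particular to LXR targets.

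Within PS2APP;Trem2ko mice (n = 6), Abca1 was correlated with Abcg1 (r = 0.957, exact permutation p = 0.00556, adjusted 0.0389; rho = 1, exact p = 0.00278, the smallest that 6 mice allow, adjusted 0.0389) and with Mylip (r = 0.955, exact permutation p = 0.00556, adjusted 0.0389; rho = 0.886, exact p = 0.0333, adjusted 0.117). Within PS2APP;Trem2wt mice (n = 7) the same pairs had r of 0.755 (exact permutation p = 0.0476, adjusted 0.650) and 0.504 (exact p = 0.255, adjusted 0.799). Without the 2 mice farthest from the median of Abca1, r was 0.929 and 0.967 in the 4 remaining PS2APP;Trem2ko mice and 0.954 and 0.695 in the 5 remaining PS2APP;Trem2wt mice. Whether the genotypes differ in these correlations was not tested. Each adjusted p covers the 14 pairs of 1 setting, and not the search over both genotypes, all 13 mice and other settings. Nr1h2, the abundant LXR, had negative r with each of the 4 targets over 13 mice, from -0.452 with Abca1 (permutation p = 0.121, adjusted 0.189) to -0.05 with Lpcat3, none past the threshold, and the sign of r with Abcg1 and Lpcat3 turned without the 2 mice farthest from the median. Spearman rho of Nr1h2 over 13 mice was positive with Abcg1 (0.148) and negative with Abca1 (-0.401), Mylip (-0.115) and Lpcat3 (-0.049). Nr1h3 also had negative r with each of the 4 targets over 13 mice, none past the threshold. They ran from -0.493 with Mylip (permutation p = 0.0972, adjusted 0.189) to -0.303 with Lpcat3, and rho from -0.324 with Mylip to 0.011 with Abca1.

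**Figure D3:**
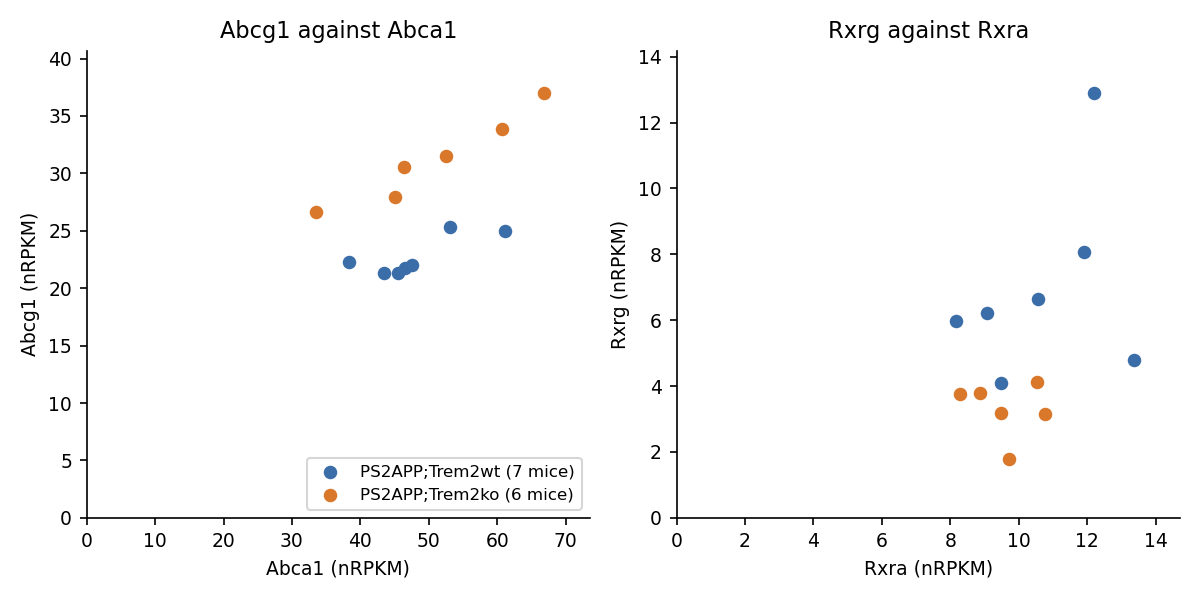
Level in nRPKM per mouse of Abcg1 against Abca1 (left) and of Rxrg against Rxra (right), with each point a mouse, blue for 7 PS2APP;Trem2wt and orange for 6 PS2APP;Trem2ko mice. The orange points on the left line up (r = 0.957 within PS2APP;Trem2ko mice on the log2 scale) and lie above the blue points, and on the right none of them is above 4.12 nRPKM of Rxrg.

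Genes with the most similar pattern were found by Pearson r of log2 normalized counts over the 13 mice, a description, among 8526 tested genes with a mean of at least 10 CPM, which all share the libraries and their depth. This r includes the difference between genotypes, so genes picked for Rxrg, Rxrb or Abcg1 were chosen partly for changing alike. The fold changes and adjusted p values of those genes are therefore no separate evidence. For Rxrg they were Cd300lb (r = 0.943), Egln3 (0.934) and Ctse (0.928), and within genotypes their r was still 0.864, 0.841 and 0.825. All 3 also fell, by 0.69, 1.45 and 1.60 on the log2 scale (edgeR, adjusted p = 0.0316, 0.00992 and 0.0183). Egln3 is an oxygen-sensing prolyl hydroxylase and Ctse the protease cathepsin E. For Rxrb they were Hk1 (0.941), Nab2 (0.939) and Frmd8 (0.929), of which Nab2 and Frmd8 fell (edgeR, adjusted p = 0.00212 and 0.00472).

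For Abcg1 they were Arhgap19 (0.942), Nfx1 (0.906) and Prr14 (0.894), with r within genotypes of 0.757, 0.775 and 0.577, and Arhgap19 and Prr14 rose by 0.76 and 0.30 on the log2 scale (edgeR, adjusted p = 0.00014 and 0.0183). For Abca1 they were Usp6nl (0.891), Sall1, a transcription factor that marks microglia (0.887), and Tug1 (0.880), and within genotypes their r was 0.942, 0.907 and 0.883. For Mylip they were Tcf7l2 (0.919), 4632427E13Rik (0.893) and Dnajc1 (0.866), and for Lpcat3 Hnrnph2 (0.911), Pecr (0.880) and Acbd3 (0.879). For Nr1h2 they were Sqstm1 (0.878), Cyc1 (0.859) and Golga7 (0.853), for Nr1h3 Atxn7l3 (0.881), Pa2g4 (0.878) and Ric1 (0.849), and for Rxra Shb (0.893), Sh3tc1 (0.887) and Grk2 (0.879).

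Further genes of the pathway were examined in 6 lists of 75 genes, of which 61 were tested. In edgeR 2 were called lower and 1 higher, where 1.53% and 0.503% of all tested genes were. At an unadjusted p of 0.05, 10 were lower and 6 higher, where 7.56% and 7.29% of all tested genes were. The median log2 fold change was -0.03, beside 0.00389 over all tested genes.

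Of 17 other LXR targets, 13 were tested (3 lower and 2 higher at an unadjusted p of 0.05), and 1, Lpl, fell. Lpl encodes lipoprotein lipase, which frees fatty acids from lipoproteins. It was at 62.7, 67.0 and 113 nRPKM (lowest, median and highest) in PS2APP;Trem2wt and at 9.54, 11.5 and 19.6 nRPKM in PS2APP;Trem2ko mice, without overlap, a log2 fold change of -2.55 ± 0.20 (edgeR, adjusted p = 3.05e-06). The 2 most abundant targets of the list were not called, Apoe, the main apolipoprotein of the brain, at a mean of 4013 and 3305 nRPKM in PS2APP;Trem2wt and PS2APP;Trem2ko mice (log2 fold change -0.28 ± 0.17, edgeR, adjusted p = 0.480) and Mertk, a receptor for the uptake of dying cells, at 159 and 165 nRPKM (0.05 ± 0.11, adjusted p = 0.870). The median log2 fold change of the list was -0.10.

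Of 13 corepressors and coactivators, all tested (1 lower and 2 higher at an unadjusted p of 0.05), Gps2 rose. Gps2, a subunit of the corepressor complex, was at 31.1 to 35.5 and 35.8 to 53.9 nRPKM in PS2APP;Trem2wt and PS2APP;Trem2ko mice, without overlap (0.36 ± 0.08, edgeR, adjusted p = 0.0321). The Gps2 call was lost in females alone (adjusted p = 0.0841) and in 11 of 13 fits without 1 mouse, all but those without PS2APP;Trem2ko replicates 4 and 5 (over the 13 fits, adjusted p from 0.0187 to 0.0717). Nrip1, the other abundant gene, was at 35.9 and 34.9 nRPKM on average (-0.04 ± 0.10, adjusted p = 0.906). Of the 50-base words of Gps2, 2.75% occur in another gene.

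Of 7 enzymes that make or remove sterol ligands, 5 were tested (2 lower at an unadjusted p of 0.05) and Ch25h fell. Ch25h makes 25-hydroxycholesterol, a ligand of LXR, and was at 13.8, 21.2 and 34.0 nRPKM in PS2APP;Trem2wt and at 2.56, 6.51 and 10.4 nRPKM in PS2APP;Trem2ko mice, without overlap (-1.92 ± 0.30, edgeR, adjusted p = 0.00212), with 8.22% of its words shared with another gene. Cyp27a1, which makes 27-hydroxycholesterol, was at 18.0 and 21.2 nRPKM on average (0.23 ± 0.11, adjusted p = 0.359).

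No gene passed the test in the other 3 lists. Among 14 other nuclear receptors that pair with RXR, 11 were tested by edgeR (0 at an unadjusted p of 0.05), all at low levels, and the most abundant were Nr4a1, at 1.78 and 1.72 nRPKM, and Thra, at 1.53 and 1.74 nRPKM. Among 20 other ABCA and ABCG transporters, 13 were tested (2 lower and 2 higher at an unadjusted p of 0.05), led by Abca9, at 102 and 85.3 nRPKM (-0.25 ± 0.14), and Abca3, at 9.60 and 9.31 nRPKM. Among 6 other lysophospholipid acyltransferases, all tested (2 lower at an unadjusted p of 0.05), Lpcat2 was at 455 and 452 nRPKM (-0.01 ± 0.10) and Lpcat1 at 51.0 and 43.3 nRPKM (-0.24 ± 0.07, edgeR, adjusted p = 0.115).

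**Figure D4:**
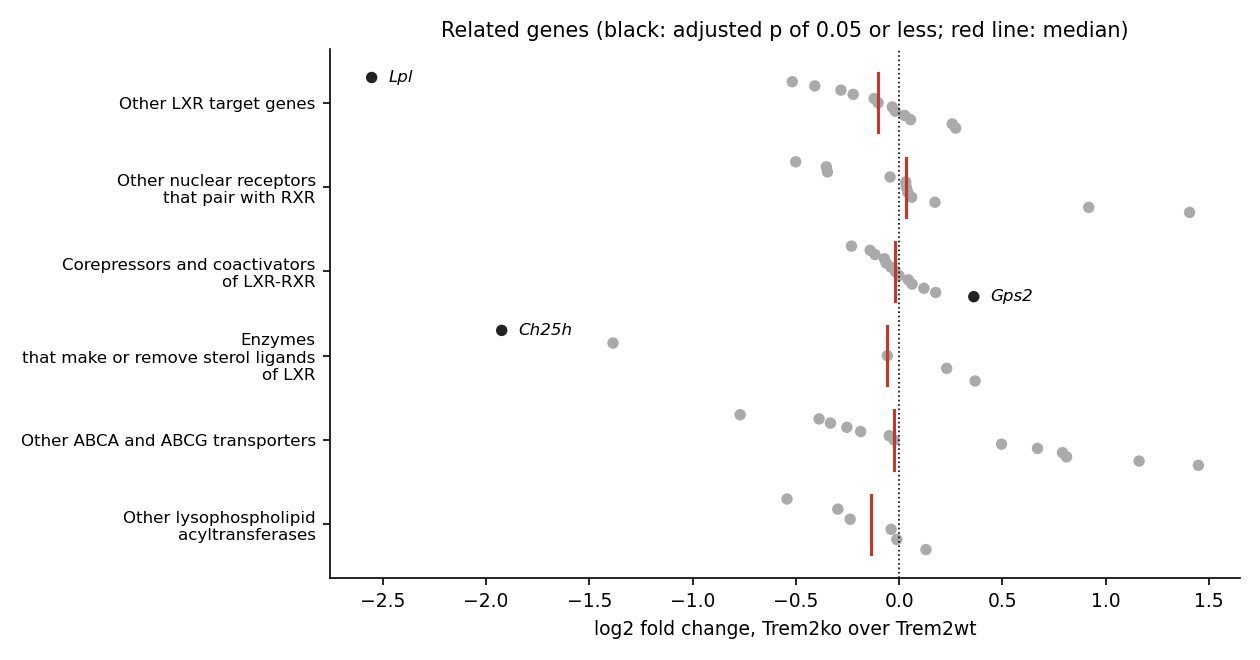
Log2 fold change, PS2APP;Trem2ko over PS2APP;Trem2wt, of the 61 tested genes in the 6 lists, 1 point a gene (a gene in more than 1 list is drawn in each), black and named where the edgeR adjusted p was 0.05 or less, with the median of each list as a red line. Lpl (-2.55) and Ch25h (-1.92) lie farthest to the left, and the medians of the 6 lists lie between -0.14 and 0.03.

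The difference between genotypes was compared between females and males. For no gene of the 9 did the interaction of sex and genotype pass the test (edgeR, lowest adjusted p = 0.508), with 1 male PS2APP;Trem2ko mouse. The nearest was Nr1h3 (interaction -1.70 ± 0.63 on the log2 scale, edgeR, unadjusted p = 0.0174), at 0.112 nRPKM in that male and 0.264 to 0.561 nRPKM in the 5 females of the same genotype.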

How the data were processed

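Mice were grouped by the genotype in the labels. Per the labels and the study's methods, the authors aligned single-end reads to GRCm38 with GSNAP and deposited, per mouse, counts of uniquely aligned reads per gene and RPKM values adjusted by a size factor (nRPKM). Counts entered the tests between genotypes, except limma on log2(nRPKM + 0.1) or log2(nRPKM + 1), and the search for genes alike in pattern. RPKM values as deposited entered levels, shares, ratios and the correlations of the 14 pairs given here, with their permutation tests.

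Genotypes were compared on the counts in edgeR 4.0.16 under R 4.3.3 (filterByExpr by genotype, TMM, glmQLFit and glmQLFTest, no covariate), with Benjamini-Hochberg adjustment over 17086 genes and a threshold of 0.05. The standard error is the log2 fold change over the square root of F. The study used voom and limma, which was 1 alternative (limma 3.58.1), beside DESeq2 1.42.0, RLE factors, no filter, 10 counts in 6 mice, the 10 females alone, a sex term, log2(nRPKM + 0.1) or log2(nRPKM + 1) in limma, and leaving out each mouse. Correlations were tested in Python 3.11.15 with scipy 1.17.1, with 100000 permutations for 13 mice and exact enumeration within genotypes. Tools were first tested on simulated data.

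All 9 genes and the lists were chosen with earlier results of these data known. Named from each list were its 2 genes with the highest mean nRPKM and every gene past the threshold, and for each of the 9 the 3 genes most alike in pattern among those of at least 10 CPM. Positions are from GENCODE M21. Some genes of the lists are not reported here.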

Additional observations from a re-analysis of the deposited data

How the results depend on the processing

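Abcg1, Lpl and Ch25h stayed past the threshold with the same direction under all 9 alternative settings and in all 13 fits without 1 mouse, and Nr1h2, Nr1h3, Rxra, Mylip and Lpcat3 stayed short of it. With DESeq2, Rxrb was past it (-0.34), 2 of the 9 genes were called lower, and 8 genes of the lists were called lower and 2 higher. With voom and limma 2 genes of the lists were called higher, and in females alone 0. Over all tested genes DESeq2 called 526 lower and 325 higher, against 262 and 86 in edgeR, females alone gave 173 lower, without a filter 53 were higher, and leaving out 1 mouse gave 191 to 284 lower and 42 to 107 higher. Without 1 mouse, the log2 fold change ranged from -1.18 to -0.86 for Rxrg, from -0.38 to -0.29 for Rxrb and from -0.013 to 0.18 for Abca1, where the lowest value came without PS2APP;Trem2ko replicate 4. The number of the 9 genes called lower ranged from 0 to 2, that of list genes called lower from 2 to 7 (7 without PS2APP;Trem2wt replicate 1) and called higher from 0 to 1. The causes were not tested. Of the 14 correlations, 0 passed over 13 mice and 2 within PS2APP;Trem2ko mice. Within PS2APP;Trem2wt mice the r of Nr1h3 turned from -0.484 over 13 mice to 0.171 with Abcg1 and from -0.303 to 0.324 with Lpcat3. Without the 2 mice farthest from the median, r turned to 0.371 for Nr1h2 with Abcg1, 0.033 for Nr1h2 with Lpcat3 and 0.165 for Nr1h3 with Lpcat3. No paired analysis was possible because the replicate numbers used here only name the mice in accession order. The study generally handled mice in pairs, 1 of each genotype, and which mice formed a pair is not given in the labels. Nr1h3 rests on 34 to 173 reads per mouse.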
